A study of Bos taurus and Sus scrofa with 10 samples.

Results

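The WNT and R-spondin signalling genes RSPO2, LGR4, LGR5, ZNRF3, CTNNB1, AXIN2, DKK1, FZD7, LEF1 and TCF7L2 were followed by RNA sequencing before implantation in Bos taurus (cow) and Sus scrofa (pig). These 10 genes were picked by symbol with their stage profiles in these data already known, so their levels and changes are a description and carry no test. All 10 were matched among the 21867 gene rows of the pig table and 9 among the 22845 rows of the cow table, with 1 row per symbol; cow TCF7L2 was not analysed here. The libraries came from oocytes, embryos of 2-4 cells and of 8-16 cells, the morula, in which the cells compact, and the blastocyst, which has a cavity, an inner cell mass and an outer trophectoderm. Each of these 5 stages had 1 library in each of the 2 species, which makes 10 libraries and leaves every difference without a check by replicates. The labels name no genotype, strain or treatment. The number of oocytes or embryos in a library, how embryos were obtained and the age of the donors are not given in the sources used here.

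WNT proteins are secreted ligands that bind Frizzled receptors with LRP coreceptors on the cell surface. Without them a cytoplasmic destruction complex that contains AXIN marks beta-catenin for degradation; with them beta-catenin accumulates, enters the nucleus and acts with the DNA-binding factors of the TCF and LEF family on target genes. R-spondins add a further layer: the membrane ubiquitin ligases ZNRF3 and RNF43 remove Frizzled receptors from the surface, and an R-spondin bound to an LGR receptor takes the ligase away, which raises the response to WNT. In early embryos of several mammals the pathway is known for work on cell fate and in embryonic stem cells.

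Levels are given as RPM, the reads of a gene scaled to a library of 1000000 reads, which compare a gene between stages of a species but not genes of different length, and not cow with pig, since each table was scaled on its own. Read totals ran from 3002751 to 14182046 per library. A library with 0 reads for a gene still allows up to 3 reads, which is between 0.212 RPM in the cow blastocyst and 0.999 RPM in the pig morula; folds against 0 reads are lower bounds against this floor. Intervals are 95% Wilson intervals for levels and exact conditional 95% intervals for ratios. They and the floors cover counting error only, because amplified reads without molecular identifiers are not independent molecules. A gene was said to rise or fall when log2(RPM + 1) differed by at least 2 between libraries and one of both held at least 1 RPM. Positions are those of the deposited tables; the submitters' processing notes name the cow build UMD3.1 and the pig build Sscrofa11.1. From oocyte to blastocyst 12 of 12 oocyte markers fell in cow and 9 of 10 in pig, where FIGLA did not. Over all genes 18.4% and 19.2% fell. Of blastocyst markers 11 of 13 rose in cow, all but ELF3 and SOX2. In pig 10 of 12 rose, all but SOX2 and ID2. Over all genes 21.8% and 26% rose. The pig blastocyst held 0 RPM of SOX2 and of NANOG, which was not among the 12 compared. The marker lists were chosen with earlier results of these data known, so these counts are no check of the labels. The share of reads on mitochondrial genes ranged from 2.74% to 30.2%, the highest being the cow blastocyst. In bulk libraries, fewer cells with a transcript and less of it per cell cannot be told apart.

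RSPO2, the only R-spondin among the 10 genes, ended at 0 reads in the blastocyst of both species and reached that point by different routes. Cow RSPO2 (chromosome 14, 58537071 to 58653100, plus strand) stood at 61.5 RPM in the oocyte, 64.4 RPM at 2-4 cells, 159 RPM at 8-16 cells, 380.3 RPM in the morula and 0 reads in the blastocyst. The oocyte and 2-4 cell intervals overlapped, and every later library lay apart from its neighbours. From oocyte to morula the ratio was 6.19 (interval 5.47 to 7.03), reached in steps of 1.29 and 1.25 on the log2 scale that each stayed under the threshold. From morula to blastocyst cow RSPO2 fell at least 1798-fold (log2 difference -8.49), from 1483 reads to 0 in the deepest library of the series.

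Pig RSPO2 (chromosome 4, 29415774 to 29577890, plus strand) had no such peak: it stood at 70.5 RPM in the oocyte, 95.7 RPM at 2-4 cells, 67.0 RPM at 8-16 cells, 24.3 RPM in the morula and 0 reads in the blastocyst. The 2-4 cell value was the highest, the oocyte and 8-16 cell values overlapped, and the morula lay 2.75-fold below the 8-16 cell embryo (log2 difference -1.42, under the threshold). The fall from morula to blastocyst was at least 30.2-fold (log2 difference -4.35). Over the whole interval from oocyte to blastocyst RSPO2 fell at least 291-fold in cow and at least 87.6-fold in pig. In pig the gene encloses a row of the opposite strand, ENSSSCG00000039525 (chromosome 4, 29505970 to 29536187), which held 175, 253, 120, 18 and 0 reads in stage order against 238, 396, 212, 73 and 0 for RSPO2. How strand was treated in counting is not given in the sources used here, so reads of the enclosed row and of RSPO2 cannot be told apart with certainty.

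**Figure D1:**
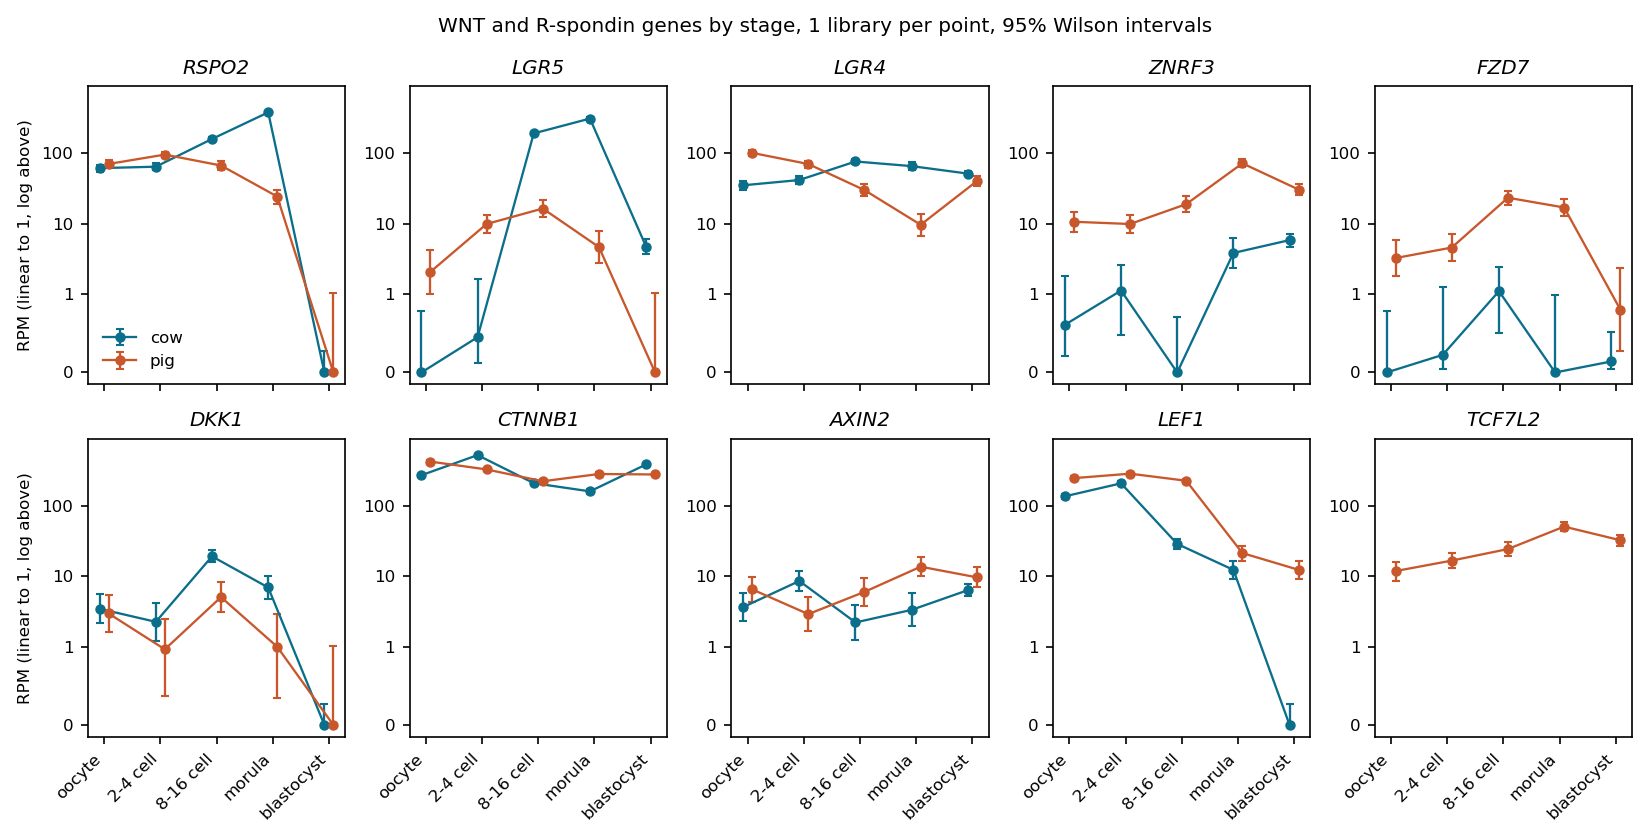
Level of each gene by stage in RPM on an axis that is linear up to 1 and logarithmic above, with cow in blue and pig in orange; each point is 1 library and bars are 95% Wilson intervals. Cow RSPO2 and LGR5 peak in the morula at 380.3 and 311 RPM, while LEF1 declines in both species and CTNNB1 stays between 160.03 and 524 RPM; TCF7L2 is shown for pig only.

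LGR5, an R-spondin receptor best known as a stem cell marker of the intestine, went from no reads to its peak and most of the way back in cow. Cow LGR5 (chromosome 5, 1076799 to 1203289, plus strand) had 0 reads in the oocyte and 2 reads (0.451 RPM) at 2-4 cells, then 191 RPM at 8-16 cells, 311 RPM in the morula and 4.72 RPM in the blastocyst. It was therefore at or under the floor in both early libraries and high in the next 2. From 2-4 to 8-16 cells it rose 424-fold (log2 difference 7.05); with 2 reads in the earlier library the counting interval runs from 117 to 3510. From morula to blastocyst it fell 65.7-fold (51.4 to 85.4), and the 67 reads that remained were still at least 7.76-fold above the oocyte (log2 difference 2.28).

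Pig LGR5 (chromosome 5, 35462254 to 35596150, plus strand) stood at its highest level at 8-16 cells, with 2.07 RPM (7 reads) in the oocyte, 9.91 RPM at 2-4 cells, 16.4 RPM at 8-16 cells, 4.66 RPM (14 reads) in the morula and 0 reads in the blastocyst. Each stage overlapped its neighbour in the order of levels, although the 8-16 cell value was 7.92-fold (3.59 to 20.7) above the oocyte. Pig LGR5 fell from morula to blastocyst, at least 5.80-fold (log2 difference -2.19). That fall was close to the threshold and was not called in quantile-normalised values, with a minimum of 5 RPM or with a pseudocount of 2.

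LGR4, the R-spondin receptor with the broader tissue distribution, was present in every library. Cow LGR4 (chromosome 15, 58873843 to 58977292, minus strand) stood at 35.1 RPM in the oocyte, 41.7 RPM at 2-4 cells, 76.4 RPM at 8-16 cells, 65.7 RPM in the morula and 51.4 RPM in the blastocyst. Its highest value was 2.18-fold (1.82 to 2.61) above its lowest, and no step reached the threshold. Pig LGR4 (chromosome 2, 32871904 to 32979148, plus strand) went from 101 RPM in the oocyte through 70.3 RPM at 2-4 cells and 30.01 RPM at 8-16 cells to 9.66 RPM in the morula, and stood at 40.2 RPM in the blastocyst. The morula value was 10.5-fold (7.17 to 15.9) below the oocyte value, and the blastocyst value was 4.16-fold (2.78 to 6.43) above that of the morula (log2 difference 1.95, just under the threshold). In cow both receptors were highest at 8-16 cells and in the morula, LGR4 over a far narrower range than LGR5, and in the pig blastocyst LGR4 held 150 reads where LGR5 had 0.

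ZNRF3, the membrane ubiquitin ligase that R-spondins act on, was low in cow and higher towards the end. Cow ZNRF3 (chromosome 17, 70526962 to 70534280, plus strand) had 3, 5, 0, 15 and 83 reads in stage order, or 0.609, 1.13, 0, 3.85 and 5.85 RPM. It rose 9.62-fold from oocyte to blastocyst (3.18 to 47.6) and at least 6.97-fold from 8-16 cells to morula, and neighbours in the order of its levels overlapped throughout. The first of these calls was lost with a pseudocount of 2 and in quantile-normalised values, and the second with a pseudocount of 2, a minimum of 5 RPM, size factors or equal depth. The cow row spans 7319 bp against 149384 bp in pig, so both rows do not cover the same extent of the gene.

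Pig ZNRF3 (chromosome 14, 46091938 to 46241321, plus strand) stood at 10.7 RPM in the oocyte, 9.91 RPM at 2-4 cells, 18.95 RPM at 8-16 cells, 71.9 RPM in the morula and 30.6 RPM in the blastocyst. The morula was apart from all other stages, 6.75-fold (4.73 to 9.89) above the oocyte. No single step reached the threshold; the nearest was the step into the morula, at 1.87. RSPO2 and LGR4 were at lower levels in the pig morula than at 8-16 cells, by 1.42 and 1.54 on the log2 scale, in the same library in which ZNRF3 was highest.

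FZD7, a Frizzled receptor, was near the detection limit in cow. Cow FZD7 (chromosome 2, 90987008 to 90989214, plus strand) had 0, 1, 6, 0 and 2 reads, and its level could be compared only in the steps into and out of the 8-16 cell stage, where those 6 reads lay. Pig FZD7 (chromosome 15, 105644188 to 105648850, plus strand) stood at 3.26 RPM in the oocyte, 4.59 RPM at 2-4 cells, 23.4 RPM at 8-16 cells, 16.98 RPM in the morula and 0.804 RPM (3 reads) in the blastocyst. It was high in both middle libraries, which overlapped, and low at both ends. The rise from 2-4 to 8-16 cells was 5.09-fold (3.04 to 8.93, log2 difference 2.12), and the fall from morula to blastocyst was 21.1-fold (6.83 to 106). The rise did not pass the threshold with a pseudocount of 2, size factors, quantile normalisation or equal depth.

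DKK1, a secreted inhibitor that binds the LRP coreceptors, peaked at 8-16 cells in both species at low to moderate levels. Cow DKK1 (chromosome 26, 6852970 to 6855647, minus strand) had 3.45 RPM in the oocyte, 2.25 RPM at 2-4 cells, 19.1 RPM at 8-16 cells, 6.92 RPM in the morula and 0 reads in the blastocyst. The 8-16 cell value lay above all others and the blastocyst value below all others, beyond their intervals. Cow DKK1 rose 8.50-fold from 2-4 to 8-16 cells (4.44 to 18.2) and fell at least 32.7-fold from morula to blastocyst. Pig DKK1 (chromosome 14, 97487117 to 97490450, minus strand) had 10, 4, 16, 3 and 0 reads, with its highest level, 5.05 RPM, also at 8-16 cells. At this depth its neighbouring levels overlapped and no step reached the threshold.

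CTNNB1, which encodes beta-catenin, the pathway's transcriptional effector and also a component of cell junctions, was present throughout and crossed the threshold in no step of either species. Cow CTNNB1 (chromosome 22, 13842703 to 13889468, plus strand) stood at 271 RPM in the oocyte, 524 RPM at 2-4 cells, 209 RPM at 8-16 cells, 160.03 RPM in the morula and 386 RPM in the blastocyst. With 624 to 5474 reads behind these values all 5 intervals lay apart, over a range of 1.70 on the log2 scale. Pig CTNNB1 (chromosome 13, 25159603 to 25208313, plus strand) ranged over 0.92, with 423 RPM in the oocyte, 328 RPM at 2-4 cells, 223 RPM at 8-16 cells, 282 RPM in the morula and 278 RPM in the blastocyst. The pig morula and blastocyst did not differ beyond counting error, with a ratio of 0.984 (0.898 to 1.08). These are transcript levels and say nothing of the protein, on which the pathway acts.

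AXIN2, a scaffold of the destruction complex that is also a common WNT target gene, was low and likewise under the threshold in every step. Cow AXIN2 (chromosome 19, 62834850 to 62860774, minus strand) had 18, 38, 12, 13 and 90 reads, or 3.65, 8.56, 2.21, 3.33 and 6.35 RPM in stage order. Pig AXIN2 (chromosome 12, 12311298 to 12343200, minus strand) had 22, 12, 19, 41 and 36 reads, or 6.51, 2.90, 6.001, 13.7 and 9.65 RPM. Neighbours in the order of levels overlapped in both species. From oocyte to blastocyst the log2 difference was 0.66 in cow and 0.50 in pig, the latter turning to -0.15 in quantile-normalised values.

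LEF1, a DNA-binding partner of beta-catenin, fell in both species, and its first called fall came at an earlier stage in cow than in pig. Cow LEF1 (chromosome 6, 18335031 to 18450774, plus strand) stood at 136 RPM in the oocyte, 208 RPM at 2-4 cells, 28.7 RPM at 8-16 cells, 12.3 RPM in the morula and 0 reads in the blastocyst. All 5 levels lay apart. It fell 7.25-fold from 2-4 to 8-16 cells (6.11 to 8.65) and at least 58.2-fold from morula to blastocyst, which makes at least 643-fold from oocyte to blastocyst. Pig LEF1 (chromosome 8, 113824511 to 113946000, plus strand) stood at 247 RPM in the oocyte, 285 RPM at 2-4 cells, 226 RPM at 8-16 cells, 21.3 RPM in the morula and 12.3 RPM in the blastocyst. Its first 3 libraries lay within 1.26-fold of their neighbours, and the fall came between 8-16 cells and morula, 10.6-fold (8.22 to 13.9). With 46 reads the pig blastocyst still held LEF1, 19.997-fold (14.9 to 27.5) below the oocyte. The stage of the first called fall thus differed between the libraries of both species. The log2 differences were -2.82 in cow and -0.33 in pig for the step into 8-16 cells, and -1.16 and -3.35 for the step into the morula. The largest fall of cow LEF1 was the later step from morula to blastocyst, at -3.65 against -0.74 in pig. With 1 library per stage the difference between the species was not tested.

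TCF7L2, another member of that factor family, was analysed in pig only (chromosome 14, 123343756 to 123545925, plus strand). It stood at 11.8 RPM in the oocyte, 16.7 RPM at 2-4 cells, 24.3 RPM at 8-16 cells, 50.6 RPM in the morula and 32.4 RPM in the blastocyst. The morula lay apart from all other stages, and the remaining neighbours overlapped. In the blastocyst it was 2.74-fold (1.90 to 4.02) above the oocyte, a log2 difference of 1.38 that did not reach the threshold. In the step from 8-16 cells to morula the pig LEF1 value was lower by 3.35 and the TCF7L2 value higher by 1.03.

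**Figure D2:**
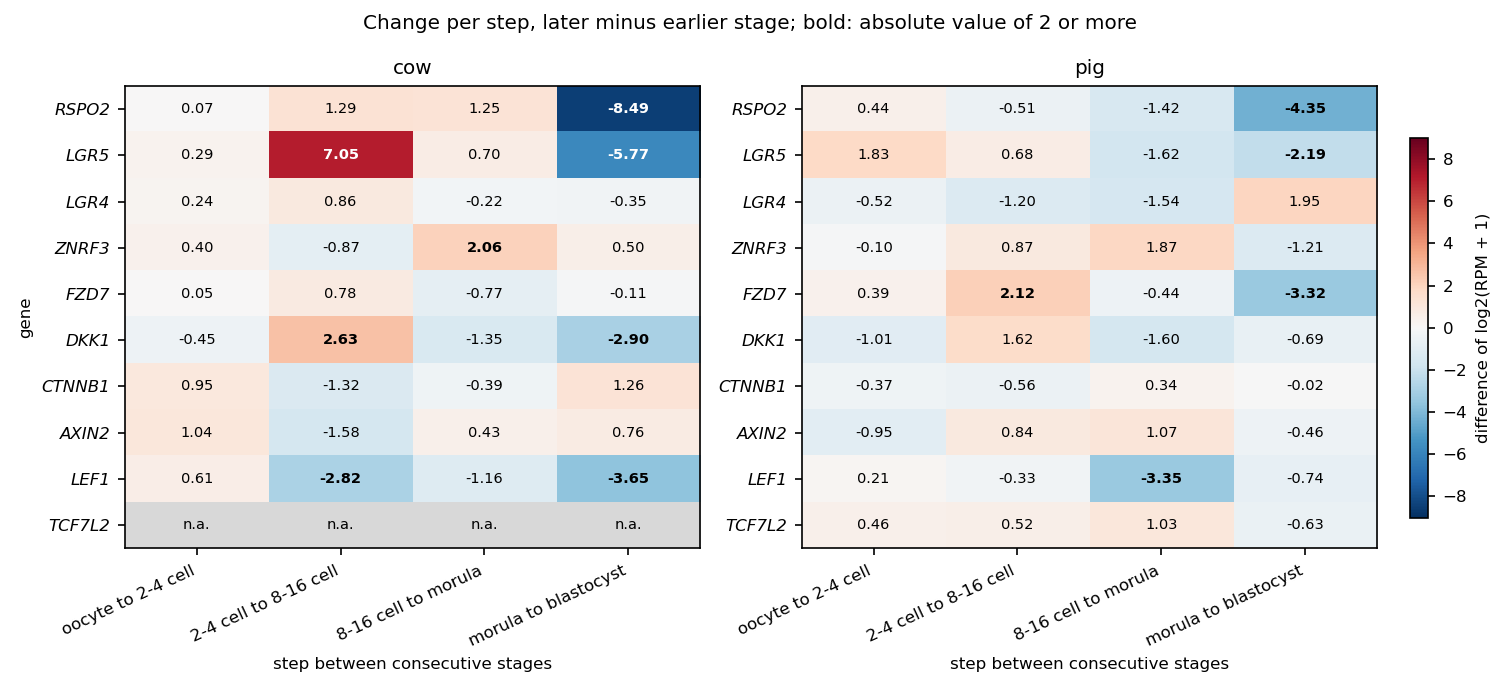
Difference of log2(RPM + 1) for each gene (rows) in each step between consecutive stages (columns), cow left and pig right, later minus earlier stage; red is higher, blue is lower, bold marks an absolute value of 2 or more and n.a. a gene not analysed. The morula to blastocyst column holds 4 bold falls in cow (RSPO2, LGR5, DKK1, LEF1) and 3 in pig (RSPO2, LGR5, FZD7).

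Between oocyte and 2-4 cells none of the 7 genes compared in cow and none of the 10 in pig changed, against 0.374% and 5.43% of all genes compared. From 2-4 to 8-16 cells 3 of 9 changed in cow (LGR5 and DKK1 up, LEF1 down), against 27.2% of all genes, and 1 of 10 in pig (FZD7 up), against 4.87%. From 8-16 cells to morula 1 of 9 changed in cow (ZNRF3 up; background 11.8%) and 1 of 10 in pig (LEF1 down; background 23.3%).

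From morula to blastocyst the changes called were falls, with a threshold of 2. In cow 4 of 8 genes changed, where 23.4% of all genes did so and 11.5% fell; in pig 3 of 9 changed, where 27.6% of all genes did so and 13.8% fell. With a threshold of 1 the step gave 5 changes in each species, among them rises of CTNNB1 in cow and LGR4 in pig, and fewer than the 6 of the cow step into 8-16 cells and the 8 of the pig step into the morula. RSPO2 and LGR5, an R-spondin and an R-spondin receptor, were the genes that fell by 2 or more in both species. Between both ends of the series, oocyte and blastocyst, changes were seen for 5 of 8 genes in cow (LGR5 and ZNRF3 up, RSPO2, DKK1 and LEF1 down) and 2 of 10 in pig (RSPO2 and LEF1 down), against 40.2% and 45.2% of all genes. With a pseudocount of 2 the cow calls of LGR5, ZNRF3 and DKK1 were lost, which left 2. Since the genes were chosen with these profiles known, nothing can be read from these shares about WNT genes as a class.

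Genes with stage profiles closest to those of the 10 were sought by the Euclidean distance of log2(RPM + 1) over the 5 stages, among 8961 cow and 8253 pig symbols with at least 10 RPM in a library, for members with a range of at least 4. Cow LGR5 was closest to ETNPPL at a distance of 0.58; this gene had 0 reads in the oocyte, 0.676 RPM at 2-4 cells, 193 RPM at 8-16 cells, 248 RPM in the morula and 3.24 RPM in the blastocyst. AMIGO2 (1.59) and CPNE8 (1.70) followed. MLLT3 (2.36) and TKTL1 (2.71) were among the genes closest to cow RSPO2. Pig RSPO2 was nearest to ICA1L (0.33), REL (0.45) and FOXR1 (0.79), all with 0 reads in the blastocyst. Cow LEF1 was nearest to ROS1 (0.94), CDKL2 (1.03) and MCF2 (1.06), and pig LEF1 to FAM102B (0.55), HSPA12A (0.66) and SLC30A4 (0.70). With only 3 genes taken per species, the lack of shared names says nothing of a difference between the species. Cow DKK1 was nearest to TTLL9 (0.86), and YOD1 (1.04) was also among its closest genes.

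The rest of the pathway was described from a list of 105 symbols that includes the 10 genes. Of these 97 were matched in cow and 96 in pig, and 69 and 73 reached 1 RPM in at least 1 library. From oocyte to blastocyst 12 rose and 16 fell of 63 compared in cow, and 12 rose and 11 fell of 62 in pig. These are 44.4% and 37.1% of the list genes compared, near the 40.2% and 45.2% over all genes. The median log2 difference of the list was -0.56 in cow beside 0.18 for all genes, and 0.11 in pig beside 0.43. Other scalings shifted the list and all genes together: the cow list median was 0.02 beside 0.59 for all genes after scaling to nuclear gene reads, and that of pig was -0.31 beside 0.26 with size factors, -0.33 beside 0.02 after quantile normalisation and -0.02 beside 0.31 with low counts raised to the floor. Between oocyte and 2-4 cells none of 59 changed in cow and 1 of 58 in pig, against 0.374% and 5.43% of all genes, and from 2-4 to 8-16 cells 7 rose and 14 fell of 62 in cow while 4 rose and none fell of 65 in pig, against 27.2% and 4.87% changed over all genes. From 8-16 cells to morula 4 rose and 6 fell of 57 in cow and 7 rose and 10 fell of 67 in pig (all genes 11.8% and 23.3%), and from morula to blastocyst 11 rose and 10 fell of 58 in cow and 6 rose and 11 fell of 63 in pig (all genes 23.4% and 27.6%).

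**Figure D3:**
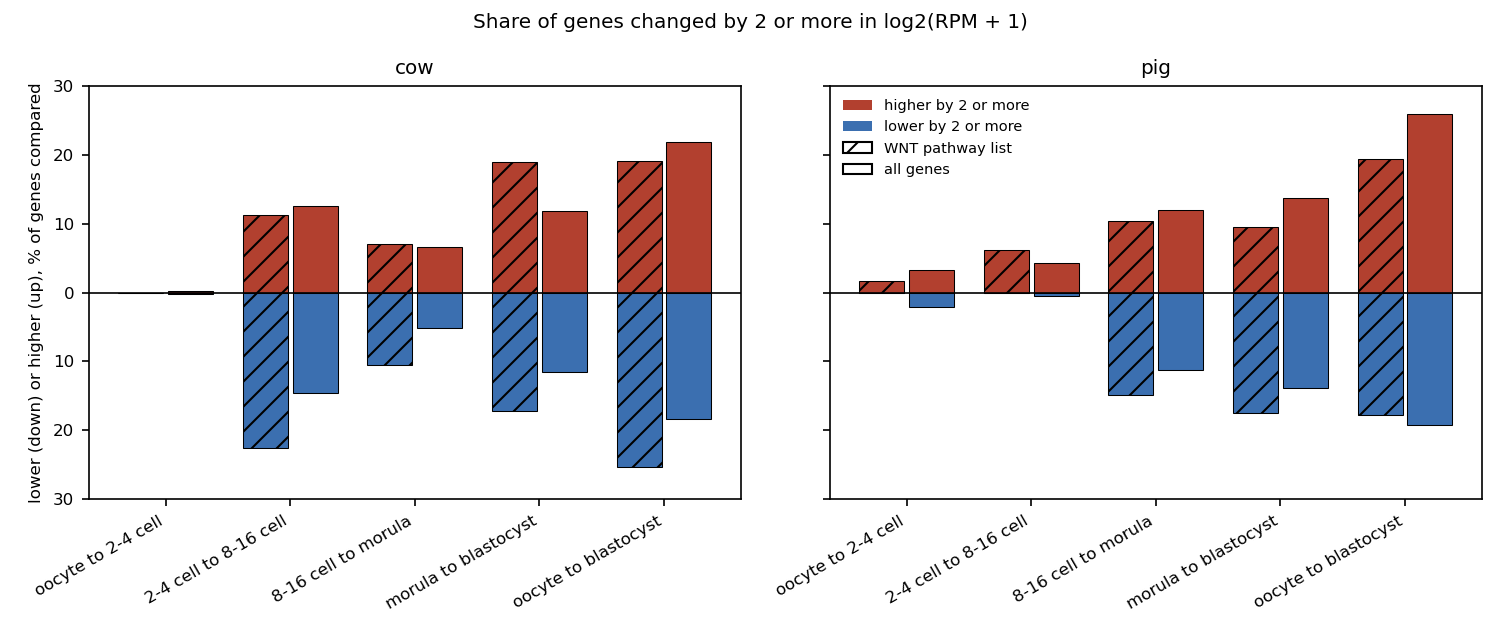
Share of genes compared that were higher (red, upward) or lower (blue, downward) by at least 2 in log2(RPM + 1), for the 105-symbol WNT pathway list (hatched) and all genes (plain), by step and from oocyte to blastocyst, cow left and pig right. In cow the step into 8-16 cells has more falls (14 of 62) than rises (7 of 62) in the list. In pig the list has 11 falls of 63 from morula to blastocyst and 10 of 67 from 8-16 cells to morula. Over all genes these pig steps have 13.8% and 11.3% falls. Their order in the list depends on the setting. It is kept at equal depth (10 of 63 and 10 of 66) and reversed with size factors (11 of 63 and 14 of 67) and quantile normalisation (9 of 63 and 13 of 66).

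Of the other R-spondins, RSPO3 was highest in the morula of both species: in cow it stood at 5.68, 2.70, 1.47, 43.9 and 13.7 RPM in stage order, rising 29.8-fold (14.8 to 70.1) from 8-16 cells to morula, and in pig at 0, 0.483, 1.90, 16.98 and 0 RPM, rising 8.96-fold (3.85 to 25.6) and then falling at least 21.1-fold. The cow RSPO3 level in the blastocyst was 3.21-fold (2.59 to 3.96) below that of the morula, a log2 difference of -1.61 that did not reach the threshold. Cow RSPO4 stood at 7.91, 9.24 and 4.23 RPM in the first 3 stages and 0 reads in the last 2. Of 19 WNT ligands, 13 stayed under 1 RPM in every cow library; WNT5A went from 51.3 to 0.635 RPM between cow oocyte and blastocyst, an 80.9-fold fall (41.9 to 179), and WNT6 from 0 reads to 15.5 RPM, a rise of at least 25.5-fold. In pig 11 of 16 reached 1 RPM. From oocyte to blastocyst 2 of 5 ligands compared changed in cow, against 40.2% of all genes. In pig 1 of 7 compared changed, against 45.2%: WNT7A, from 6.22 RPM to 0 reads.

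RNF43, the ligase paired with ZNRF3, rose from oocyte to blastocyst. The cow level went from 1.42 to 20.7 RPM (14.6-fold, 6.97 to 36.5) and the pig level from 0 reads to 18.8 RPM (at least 21.1-fold). Of receptors and coreceptors, 1 rose and 1 fell of 7 in cow (LRP5 up, ROR2 down) and 1 rose and 1 fell of 9 in pig (FZD4, whose row overlaps TMEM135, up and FZD3 down), against 40.2% and 45.2% of all genes changed. Cow LRP5, a WNT coreceptor, went from 1.22 to 21.2 RPM. Pig FZD3 went from 65.7 to 1.34 RPM, a 49.03-fold fall (20.7 to 153).

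Among secreted and membrane inhibitors, the oocyte to blastocyst comparison gave 7 lower and 1 higher of 10 compared in cow, where 18.4% of all genes were lower, and 4 lower and 1 higher of 7 in pig, where 19.2% were lower. WIF1, which binds WNT proteins, fell in both: cow WIF1 stood at 95.1, 76.8, 7.36, 0 and 0 RPM in stage order and pig WIF1 at 555, 189, 208, 32.3 and 0 RPM, falls of at least 450-fold and at least 689-fold. The cow row of WIF1 overlaps that of bta-mir-2429. Cow SOSTDC1, an inhibitor of WNT and BMP signalling, went from 112, 105 and 4.23 RPM to 0 reads in the morula and blastocyst. Cow DKK1 is one of the 7, so the count includes a gene chosen with its values known.

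Of the nuclear factors compared from oocyte to blastocyst, 4 were higher and 3 lower of 12 in each species, where 21.8% of all genes were higher and 18.4% lower in cow and 26% and 19.2% in pig. The corepressor gene TLE3 rose, from 0.811 to 134.8 RPM in cow (166-fold, 64.8 to 610.5) and from 0.888 to 23.6 RPM in pig. Pig PYGO1, a coactivator of beta-catenin, fell at least 145-fold, having 117 RPM in the oocyte and no read in the blastocyst, and pig TCF7, of the same family as LEF1, went from 74.0 to 1.34 RPM, 55.2-fold (23.4 to 171.5). Of BCL9 and BCL9L, related beta-catenin adaptors, cow BCL9 fell from 53.96 to 3.60 RPM and BCL9L rose from 1.42 to 19.4 RPM; pig BCL9L rose from 0.592 to 29.5 RPM, in a row that overlaps CXCR5. Of common WNT target genes, 3 were higher and 2 lower of 8 in cow and 3 higher and 2 lower of 11 in pig, against the same shares of all genes. The cow genes were LGR5, ZNRF3, RNF43, LEF1 and DKK1, of which all but RNF43 belong to the 10 chosen with their values known, and LGR5, ZNRF3 and DKK1 lost their call with a pseudocount of 2.

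**Figure D4:**
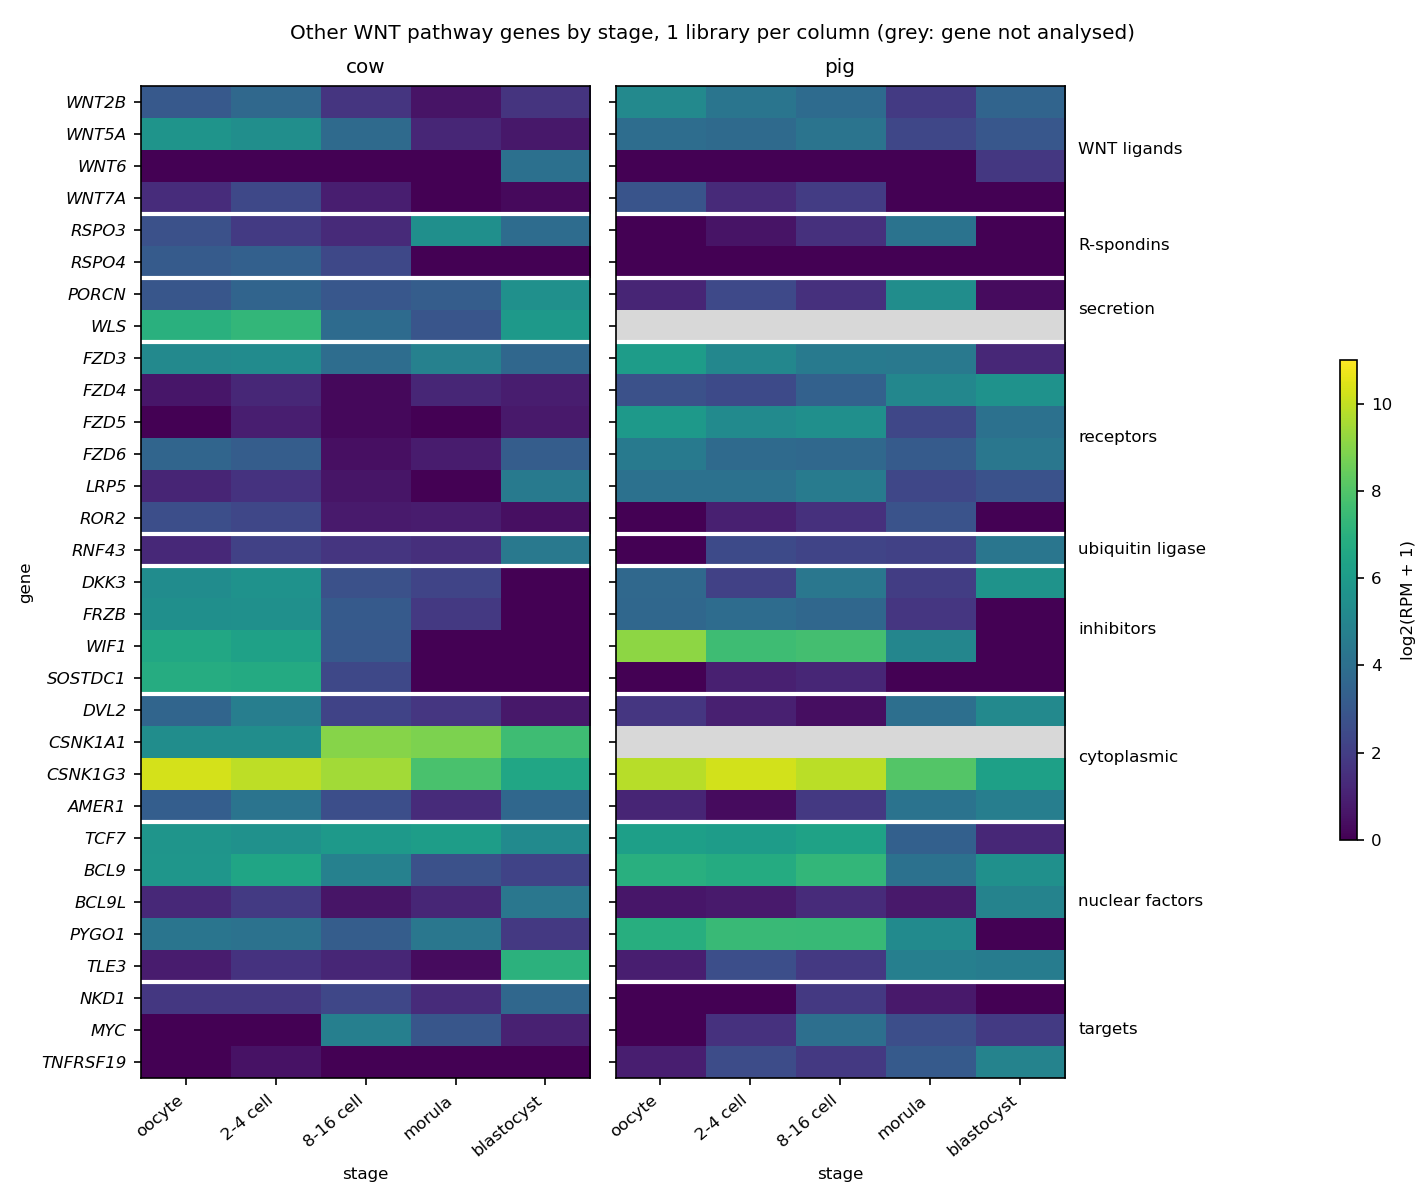
Levels of the other named WNT pathway genes as log2(RPM + 1) (colour) by stage (columns), grouped by role, cow left and pig right, 1 library per column; grey marks a gene not analysed. WIF1 ends at 0 reads in both blastocysts, RNF43 is brightest there, and RSPO3 is brightest in both morulae.

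Cumulus cells, which surround the oocyte, could be carried into a library, and their marker genes were followed beside these results. Their summed level was 591, 526, 427, 312 and 1041 RPM in stage order over 20 markers in cow, with 4 to 8 of them at 0 reads in a library and FOXL2 at 0 in all. In pig it was 284, 185, 370.2, 710.3 and 2462 RPM over 15 markers, with 4 to 6 at 0 reads and INHA at 0 in all. PTGS2, which is not specific to cumulus cells, supplied 902 RPM of the cow and 1809 RPM of the pig blastocyst sum. Without it the cow sum was 499.6, 465, 422, 311 and 139 RPM, lowest in the blastocyst, and the pig sum was 284, 185, 369, 698 and 653 RPM, highest in the morula. From oocyte to blastocyst 4 markers rose and 5 fell of 15 compared in cow, where 21.8% of all genes rose and 18.4% fell. In pig 4 rose and 2 fell of 10, where 26% of all genes rose and 19.2% fell. The part of these cells in the results was not tested.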

How the data were processed

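Total RNA of 10 libraries was amplified from low input before library construction with 8 PCR cycles, per the labels' protocols. The submitters' processing notes name Trim Galore 0.6.4, HISAT2 2.1.0 and the builds UMD3.1 and Sscrofa11.1; positions are those of the deposited tables. The authors deposited log2 values, 1 table per species. The values showed their own scale: the second lowest value of a column is 1 read, all values above it are whole multiples (tolerance 1%), and 0 reads are written as 0.9 read, so the deposited log2 values are log2 RPM of all reads. The counting program and the handling of strand and duplicates are not given in the sources used here.

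Reads were recovered from these values with Python 3.11.15, numpy 2.4.6, pandas 2.3.3 and scipy 1.17.1. Changes are differences of log2(RPM + 1), with 0 reads at 0.9 read as deposited; this scale understates changes of low genes. A gene was compared at a minimum of 1 RPM in one of both libraries, and called at an absolute difference of 2. Of repeated symbols the row with the highest mean was used. Each group had 1 library, so no test was run and the printed intervals and the 3-read floor cover counting error only. The calling step was tested on simulated data.

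The 10 genes and the lists (WNT ligands, R-spondins, WNT secretion, receptors and coreceptors, R-spondin receptors and ligases, inhibitors, cytoplasmic components, nuclear factors, common targets, and oocyte, blastocyst and cumulus cell markers) were chosen with earlier results of these data known. Named from each WNT list were up to 3 genes per species with the largest range over the stages, of at least 2 on the log2 scale; genes that spell out a count of 5 or fewer, and pig TLE3, were named after their values were seen. For members with a range of at least 4, the 3 genes nearest by Euclidean distance were named, except 2 that are not reported here. Alternatives were other pseudocounts, minimum levels, thresholds and scalings, equal depth, summed rows and, chosen after seeing the data, 0 reads as 0 RPM and the cumulus sum without PTGS2.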

Additional observations from a re-analysis of the deposited data

Results flagged for a closer look

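Genes of the pathway list that rose in one species and fell in the other over the same interval are given here; the difference between the species was not tested, since each value rests on 1 library per stage. DVL2, a cytoplasmic transducer of the WNT signal, differed from oocyte to blastocyst by -2.89 on the log2 scale in cow and by 3.44 in pig, where its row overlaps that of ACADVL. DKK3, of the Dickkopf family, differed from 2-4 to 8-16 cells by -2.87 in cow and 2.23 in pig, and from morula to blastocyst by -2.19 in cow and 3.67 in pig. Pig DKK3 had 41, 14, 62, 9 and 186 reads in stage order, and cow DKK3 196, 213, 31, 15 and 0. PORCN, the enzyme that acylates WNT proteins for secretion, differed from morula to blastocyst by 2.29 in cow and -5.07 in pig. Pig PORCN held 125 reads in the morula and 1 in the blastocyst, a 155-fold fall with a counting interval from 27.4 to 6181.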

How the results depend on the processing

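Across 11 other settings, 979 of 1045 values of a change of the 10 genes moved by less than their counting error and none that was called changed sign. Other minimum levels and a threshold of 1 leave these values as they are, and so do summed rows, since each gene had 1 row. Those values are counted in the 1045 but are no check. Of 20 calls among the 10 genes, 14 held with a pseudocount of 2, 16 with a minimum of 5 RPM, 17 after quantile normalisation and at equal depth, 18 with median-of-ratios size factors, and 20 under each of the other 6 settings. Among those 6, only scaling to nuclear gene reads could have lost a call. The calls lost were ZNRF3, LGR5 and DKK1 in cow and FZD7 and LGR5 in pig. With a pseudocount of 2, 2 genes were called from oocyte to blastocyst in cow, and 0 in the cow step into the morula and the pig step into 8-16 cells. A minimum of 5 RPM gave 3 and 0 for the same cow comparisons. Size factors and equal depth each gave 0 in the cow step into the morula and the pig step into 8-16 cells, and 1 in the pig step into 2-4 cells; quantile normalisation gave 0 in the pig step into 8-16 cells; a pseudocount of 0.5 and nuclear gene reads each gave 1 in the pig step into 2-4 cells. With a threshold of 1, counts in cow were 1, 6 and 4 for the first 3 steps, and in pig 2, 3, 8 and 5 for the 4 steps and 8 from oocyte to blastocyst. For the pathway list that threshold gave 5, 40, 25 and 36 in the 4 cow steps and 44 from oocyte to blastocyst, and 15, 14, 44, 39 and 48 in pig; for all genes from oocyte to blastocyst it gave 8973 in cow and 9075 in pig. A pseudocount of 2 gave 4 list genes in the cow step into the morula, and 2 and 0 in the pig steps into 8-16 and 2-4 cells. In the pig step into 2-4 cells the list count was 3 with a pseudocount of 0.5 and with nuclear gene reads, 2 with size factors and 0 with a minimum of 5 RPM, and in the pig step into 8-16 cells it was 2 with size factors and 1 after quantile normalisation. Scaling to nuclear gene reads moved the median of all genes from oocyte to blastocyst by 0.42 in cow, and quantile normalisation by -0.41 in pig. No paired analysis was possible because each stage had 1 library. Depth limits pig DKK1, cow FZD7 and cow ZNRF3, which rest on few reads. The cause of these shifts was not tested.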

Other observations

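Of the cytoplasmic components of the pathway, 1 rose and 2 fell of 19 compared from oocyte to blastocyst in cow, and 3 rose and 1 fell of 17 in pig, which is 15.8% and 23.5% changed against 40.2% and 45.2% of all genes. CSNK1G3, a casein kinase 1 gene, fell 13.9-fold (13.1 to 14.8) in cow, 1253 RPM in the oocyte against 89.97 RPM in the blastocyst, and 12.3-fold (10.9 to 13.9) in pig, 912 against 74.3 RPM. Cow CSNK1A1, whose kinase starts the marking of beta-catenin, rose 12.4-fold (10.7 to 14.5) between 2-4 and 8-16 cells, from 41.2 to 511 RPM. Pig AMER1, a binding partner of the APC protein, rose from 1.18 to 25.5 RPM between oocyte and blastocyst.

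The WNT secretion list held 2 genes, WLS and PORCN, of which WLS was not matched in pig. Cow WLS, the carrier of WNT proteins to the cell surface, stood at 125, 153, 13.4, 6.41 and 58.5 RPM in stage order, an 11.4-fold fall (8.96 to 14.7) into the 8-16 cell stage and a 9.13-fold rise (6.14 to 14.2) into the blastocyst. Cow PORCN rose 6.74-fold (4.75 to 9.88) from oocyte to blastocyst. Among common target genes, cow MYC had 0 reads in the oocyte and at 2-4 cells and 25.8 RPM at 8-16 cells, a rise of at least 38.1-fold, in the same step in which LGR5 and DKK1 rose. Pig TNFRSF19 rose from 0.888 RPM (3 reads) to 29.2 RPM between oocyte and blastocyst, 32.9-fold (10.97 to 162).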
